A study of Mus musculus with 9 samples.

Results

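Genes of BMP, activin and TGF-beta signalling were followed across sorted islet cells. They were chosen by name among protein-coding genes, as ligands (Bmp, Gdf, Inha and Inhb genes, Tgfb1 to Tgfb3), receptors (Acvr and Bmpr genes, Tgfbr1 to Tgfbr3, Bambi), Smads and secreted inhibitors such as Fst, Fstl3, Nog and Grem1. The rule took 56 of the 55536 genes in the tables, of which 22028 were protein-coding. It used no measured value. Bmp1, a protease that processes procollagen, and Bmp2k, an intracellular kinase, carry matching names but are not ligands, and they are described apart.

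The 9 RNA-seq libraries came from sorted pancreatic islet cells of 12 weeks old C57B/L6 mice. All islets were cultured overnight and then dispersed, stained and sorted by surface markers into subsets, with 3 libraries each. The alpha-enriched cells were CD24low CD71-, the beta-enriched cells CD24low CD71+ and the delta-enriched cells CD24high, where CD24 is a surface glycoprotein and CD71 the transferrin receptor. Nothing in the labels says that the libraries of a subset came from separate mice, so the p-values measure the spread between these libraries, which may be technical. The subsets are called alpha, beta and delta below, and their libraries are given in the order 1, 2, 3.

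Ligands of this family are secreted dimers that bring type I and type II receptor kinases together. The type I kinase then phosphorylates a Smad protein: Smad1, Smad5 or Smad9 in the BMP branch, Smad2 or Smad3 in the activin and TGF-beta branch. Smad4 joins either kind on the way to the nucleus, and Smad6 and Smad7 inhibit the pathway. In islets the family is known for roles in endocrine differentiation and in the control of hormone secretion and beta-cell mass.

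Levels are given as CPM after TMM scaling, which puts the counts of all libraries on 1 total, and comparisons are log2 fold changes with their standard error (SE) from edgeR's quasi-likelihood fit of 15896 genes, with Benjamini-Hochberg adjustment over all of them and a threshold of 0.05. Library totals ran from 5663141 to 9529920 expected counts. Each subset held its own markers, as summed CPM over lists of marker genes. The alpha list stood at 84019 to 103770 in alpha against 2799 to 7131 in delta, and the delta list was highest in delta. The beta list stood at 50513 to 61455 in beta against 4292 to 6250 in alpha and 6011 to 7262 in delta. In delta that sum was mostly Iapp, with 51159, 37462 and 46336 of 53172, 39751 and 52455 counts. Ins1, Ins2, Mafa, Nkx6-1, Slc2a2 and Ucn3 had fewer counts in every delta library than in any alpha library, whereas Iapp and Glp1r had more. Markers of pancreatic polypeptide (PP) cells stood at 2961 to 4013 CPM in alpha, 211 to 241 in beta and 4719 to 6632 in delta. Within that list the genes differed in direction. Pyy had 21105, 27322 and 24687 counts in delta against 10962, 11203 and 7629 in alpha. Meis2 had 2642, 2350 and 3150 counts in delta against 1520, 1437 and 1515 in alpha. Counts of Ppy overlapped, at 10807, 14187 and 11726 in delta and 17363, 19131 and 11739 in alpha. Sertm1 was lower in delta, with 2, 4 and 9 counts against 138, 95 and 102 in alpha. The part of these other cells in the differences below was not tested, and in bulk RNA fewer cells of a type and less RNA per cell cannot be told apart. In beta library 2, 34.4% of counts fell on 1 ribosomal RNA locus, CT010467.1, against 3.15% to 5.37% in the others, and acinar markers reached 2181 CPM in delta library 3. The 52 member calls below were refitted with each library left out, and with both of these left out together.

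Of the 56 genes, 32 had enough counts to be tested and 24 did not, and among the latter no library exceeded 3.27 CPM. In beta against alpha, 5 were higher in beta and 10 lower, at background shares of 14.8% higher and 11.9% lower over all genes tested (26.6% either way). In beta against delta, 4 were higher in beta and 16 lower, where 15.4% and 15.3% of all genes were (30.6% either way). In alpha against delta, 6 were higher in alpha and 11 lower, against 11.0% and 13.3% of all genes (24.3% either way). The counts here include Bmp1 and Bmp2k, both higher in beta than in alpha. Bmp1 was also among those higher in beta and in alpha than in delta, and Bmp2k among those lower in alpha than in delta. The median log2 fold change of the 32 genes was -0.12 in beta against alpha, -0.37 in beta against delta and -0.30 in alpha against delta, beside -0.02, -0.02 and -0.01 over all genes tested. The libraries of the subsets did not overlap for 16 of the 32 genes in beta against alpha (45.5% of all genes tested), 21 in beta against delta (42.6%) and 20 in alpha against delta (36.1%). The 3 comparisons share libraries, so their counts are not independent.

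A gene was counted as highest in 1 subset when it passed against both others, by an intersection-union test adjusted over all genes, with log2 fold changes of at least 1. Of the 32 genes, 7 were highest in delta, among them Bmp3, Bmp6, Bmp7, Gdf15, Bambi and Tgfbr3, where 3.89% of all genes were. Only Smad9 and Tgfb2 were highest in alpha (1.83% of all genes), and only Bmp1 and Bmpr1b in beta (2.76%). Tgfb2 and Bmpr1b rested on few libraries here. Tgfb2 lost this status without any 1 alpha library, beta library 2 or beta library 3, and Bmpr1b without any 1 beta library, delta library 1 or delta library 3. Tgfbr3 lost it without beta library 3.

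**Figure D1:**
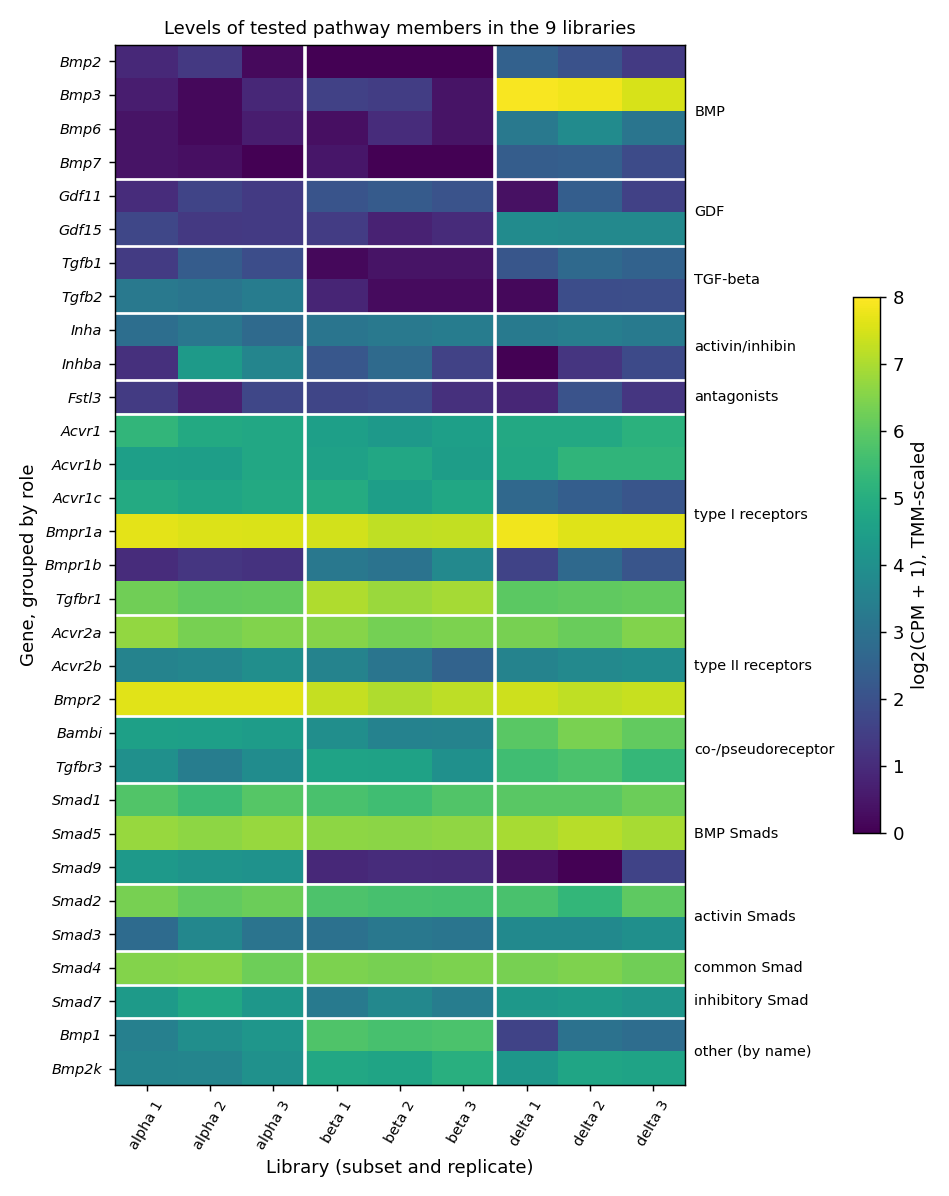
Heat map of tested members (rows, grouped by role) in the 9 libraries (columns, 3 per subset), with colour giving log2(CPM + 1). Bmp3 is bright (high) in the 3 delta libraries and dark (low) in the other 6, whereas Smad4, Smad5, Bmpr1a and Bmpr2 are bright in every library.

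The stretch of 250 bases before the start annotated in RefSeq is printed for 4 genes that later results turn on. These are Bmp6, highest in delta, Tgfb2 and Smad9, highest in alpha, and the BMP target gene Id3. Id3 was also higher in alpha than in beta and delta. For Bmp6 this stretch lies inside the gene as GENCODE places it, from position 38345107 on the plus strand. Sequences are from RefSeq (build GRCm38.p6), which gave such a window for 38 of the 56 members, and each reads 5′ to 3′ towards the gene. Capitals mark CAGAC, which contains the short box bound by Smads, or GGCGCC, a GC-rich element bound by BMP Smads, on either strand (GTCTG is CAGAC on the other strand, and GGCGCC reads the same on both).
Bmp6, chr13:38345466-38345715, plus strand: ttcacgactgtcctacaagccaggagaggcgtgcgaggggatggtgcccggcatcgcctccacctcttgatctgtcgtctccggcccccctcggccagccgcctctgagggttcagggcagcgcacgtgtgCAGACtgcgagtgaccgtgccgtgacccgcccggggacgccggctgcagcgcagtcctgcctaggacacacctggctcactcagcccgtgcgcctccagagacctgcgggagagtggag
Tgfb2, chr1:186705990-186706239, minus strand: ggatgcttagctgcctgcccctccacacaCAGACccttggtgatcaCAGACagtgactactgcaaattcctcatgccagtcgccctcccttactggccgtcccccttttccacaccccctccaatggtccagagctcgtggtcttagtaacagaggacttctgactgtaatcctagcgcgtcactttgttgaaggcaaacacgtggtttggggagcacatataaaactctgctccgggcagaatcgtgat
Smad9, chr3:54755332-54755581, plus strand: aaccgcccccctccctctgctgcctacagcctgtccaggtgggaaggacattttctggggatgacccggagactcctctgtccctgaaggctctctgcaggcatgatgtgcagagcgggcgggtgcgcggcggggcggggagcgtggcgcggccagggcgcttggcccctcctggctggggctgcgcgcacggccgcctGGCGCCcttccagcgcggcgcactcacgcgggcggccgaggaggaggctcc
Id3, chr4:136143572-136143821, plus strand: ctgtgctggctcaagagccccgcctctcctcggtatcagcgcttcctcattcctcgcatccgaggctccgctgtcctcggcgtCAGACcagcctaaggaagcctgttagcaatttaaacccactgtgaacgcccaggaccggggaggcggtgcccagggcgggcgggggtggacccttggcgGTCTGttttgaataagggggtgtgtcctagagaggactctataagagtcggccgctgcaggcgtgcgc

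Tgfb2 and Id3 each held 2 matches to CAGAC, Bmp6 held 1, and Smad9 held 1 match to GGCGCC. Of 32851 windows of the same length in the table, 42.2% held CAGAC and 9.59% held GGCGCC, so the first motif is common in such windows. A longer GC-rich motif, GCCGNCGC, was in 6.89% of all windows and in none of these 4. A match describes letters only.

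The highest BMP ligand was Bmp3, in delta. Bmp3 encodes an atypical BMP that opposes the signalling of other BMPs, and lies on chromosome 5 at 98854415 to 98884396 (GRCm38, plus strand). It stood at 239, 224 and 183 CPM in delta, 0.570, 0.126 and 0.847 in alpha, and 1.93, 1.71 and 0.330 in beta. Every delta library was far above every other library. The log2 fold change was -8.69 in alpha against delta (SE 0.33, adjusted p = 1.78e-10) and -7.28 in beta against delta (SE 0.30, adjusted p = 1.95e-10). Between beta and alpha the libraries overlapped and Bmp3 missed the threshold (1.40, SE 0.58, adjusted p = 0.0963). That difference passed when beta library 3 was left out (1.83, adjusted p = 0.00736) and with DESeq2 (adjusted p = 0.0273).

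Bmp6, the BMP ligand best known for inducing hepcidin in iron balance, was at 8.33, 13.6 and 7.71 CPM in delta, 0.342, 0.126 and 0.564 in alpha, and 0.257, 1.03 and 0.330 in beta. The delta libraries lay above all others, with log2 fold changes of -4.80 in alpha (SE 0.61, adjusted p = 1.13e-05) and -4.20 in beta (SE 0.59, adjusted p = 2.59e-05), the latter -5.02 without beta library 2. Exons of Bmp6 share 224 bases with Txndc5 on the opposite strand, which was at 122 CPM in delta, 83.3 in alpha and 97.2 in beta. The sources used here do not say whether counting used strand, so reads of the shared bases cannot be assigned between these genes.

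Bmp7 and Bmp2, both activators of BMP receptors, were low in every subset and also highest on average in delta. Bmp7 was at 4.10, 4.38 and 2.57 CPM in delta and at no more than 0.385 in any other library. Its 79 counts in delta stood beside 3 in beta, all in beta library 1, a ratio of 23.9 with a 95% exact counting interval of 7.87 to 118, and edgeR gave adjusted p = 0.0019 against beta and 0.00332 against alpha (log2 -4.05, SE 0.92). On the log2(TPM + 1) scale both differences still passed, but not the joint test of Bmp7 as highest in delta. Bmp2 had 0 counts in all beta libraries, 0.911, 1.51 and 0.141 CPM in alpha and 4.64, 3.02 and 1.54 in delta. Set against 3 counts over the beta libraries, it was at least 19.9-fold lower in beta than in delta (adjusted p = 0.000857) and at least 5.79-fold lower than in alpha (adjusted p = 0.015). The second of these was lost without alpha library 2 (adjusted p = 0.0592), without beta library 1 (adjusted p = 0.0541) and on the log2(TPM + 1) scale (adjusted p = 0.499). Between alpha and delta Bmp2 made no call (log2 -1.80, SE 0.79, adjusted p = 0.119).

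The other 6 BMP ligands, Bmp4, Bmp5, Bmp8a, Bmp8b, Bmp10 and Bmp15, were not tested. Bmp4 and Bmp15 had no count in any library, which at 3 counts allows 0.342 to 0.514 CPM per library. Bmp10 was seen in delta library 1 alone, at 2.32 CPM. Per length of transcript, the 10 BMP ligands together came to 15.7, 21.2 and 16.7 TPM (a length-scaled share of the transcripts of a library) in delta, 0.66, 0.44 and 0.36 in alpha, and 0.37, 0.36 and 0.30 in beta.

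Of 10 GDF genes only Gdf15 and Gdf11 were tested. Gdf15, a stress-induced hormone that acts through Gfral with Ret, was at 13.5, 12.7 and 12.5 CPM in delta, 2.28, 1.51 and 1.55 in alpha, and 1.67, 0.685 and 0.990 in beta. The 3 delta libraries were close together and above the rest, with log2 fold changes of -2.84 in alpha (SE 0.38, adjusted p = 2.04e-05) and -3.48 in beta (SE 0.40, adjusted p = 3.22e-06). Ret, the signalling partner of that receptor, was highest in beta at 158 ± 8.10 CPM (mean ± SD, n = 3), against 58.0 ± 6.21 in alpha and 70.5 ± 11.2 in delta (adjusted p = 1.10e-07 and 1.19e-06). Gfral itself had 0 to 5 counts per library and was not tested. Gdf11, a ligand of activin receptors, was at 3.43 ± 0.445 CPM in beta, 1.57 ± 0.558 in alpha and 2.14 ± 1.99 in delta, with no call (adjusted p = 0.269 to 0.709). Gdf3 and Gdf5 had no count, and Gdf1, Gdf2, Gdf6, Gdf7, Gdf9 and Gdf10 were near 0.

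**Figure D2:**
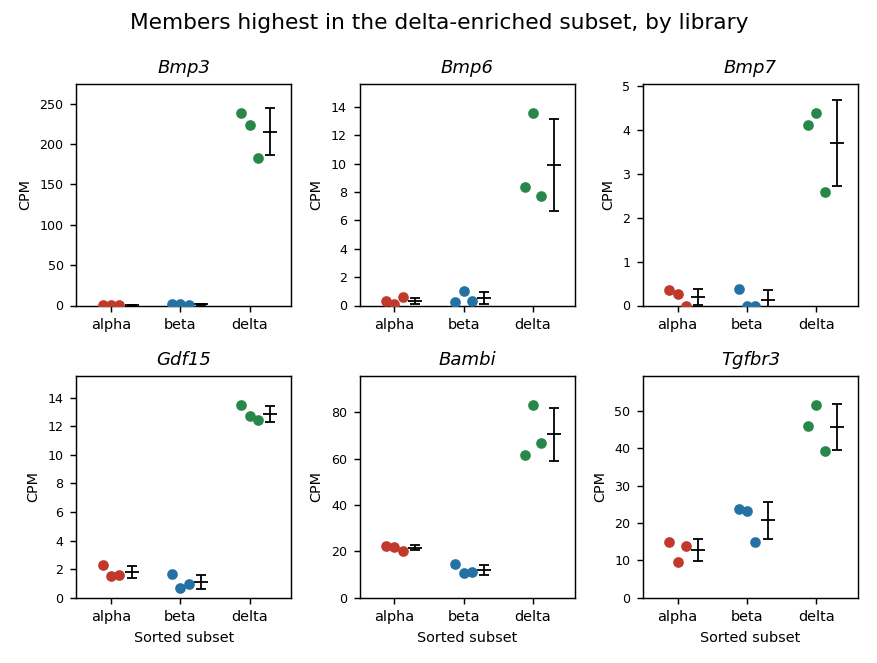
CPM (linear axis from 0) of 6 members highest in delta, with dots for libraries and a black bar for mean ± SD (n = 3) of each subset, cut at 0 where it would go below. For Bmp3, Bmp6, Bmp7 and Gdf15 the alpha and beta libraries lie near 0, whereas Bambi and Tgfbr3 also have counts in every alpha and beta library.

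The TGF-beta ligands were low in beta. Tgfb2, on chromosome 1 at 186622792 to 186705989 (minus strand), was at 8.43, 7.56 and 9.17 CPM in alpha, 0.770, 0.171 and 0.165 in beta, and 0.137, 2.72 and 2.83 in delta. All alpha libraries lay above the others, whereas delta library 1 lay below every beta library and the other delta libraries above them. The log2 fold change was -4.35 in beta against alpha (SE 0.77, adjusted p = 0.00037, and -5.50 without beta library 1) and 2.14 in alpha against delta (SE 0.63, adjusted p = 0.0201). The latter was lost without alpha library 1 (adjusted p = 0.0584) or alpha library 3 (adjusted p = 0.068). Beta against delta sat at the threshold (-2.21, SE 0.81, adjusted p = 0.0495) and was lost on leaving out any alpha library, beta library 2 or 3, or delta library 2 or 3 (adjusted p = 0.069 to 0.168), and on the log2(TPM + 1) scale. With the replicate number as a block it was -2.07 with adjusted p = 0.0917.

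Tgfb1, the most widely expressed TGF-beta, was at 1.59, 4.03 and 2.68 CPM in alpha, 0.128, 0.343 and 0.330 in beta, and 3.41, 5.59 and 4.75 in delta. Beta lay below both other subsets in every library, by log2 -3.34 against alpha (SE 0.68, adjusted p = 0.00113) and -4.07 against delta (SE 0.67, adjusted p = 0.000136). On the log2(TPM + 1) scale the difference from alpha did not pass (adjusted p = 0.136). Alpha and delta overlapped (adjusted p = 0.339). Tgfb3 was at most 2.64 CPM in a library and was not tested.

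Activins are dimers of inhibin beta subunits, and inhibins pair a beta subunit with the alpha subunit Inha. Inha made no call, at 6.70 ± 1.11 CPM in alpha, 8.40 ± 0.833 in beta and 9.10 ± 0.641 in delta (adjusted p = 0.268 to 0.789). Inhba, the subunit of activin A, was at 1.14, 19.4 and 11.4 CPM in alpha, 3.47, 5.83 and 1.98 in beta, and 0, 1.36 and 2.44 in delta. The alpha libraries overlapped those of both other subsets, and no comparison of Inhba passed (adjusted p = 0.106 in alpha against delta, and 0.00468 without alpha library 1). Mesenchymal markers also varied across the alpha libraries, where the summed list of 9 genes had 116, 413 and 118 counts. Within it the order differed by gene, with Col1a1 at 0, 116 and 32 counts and Col1a2 at 87, 164 and 61. The summed list ran from 13.2 to 52.0 CPM in alpha, against 1.28 to 1.54 in beta and 3.41 to 9.12 in delta. Fst, the secreted inhibitor of activin, reached 3.27 CPM in alpha library 2 and was otherwise at 0 or 0.165. The part of mesenchymal RNA in these values was not tested. Inhbb was below 1 CPM in every library, and Inhbc and Inhbe were near 0.

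Of the secreted inhibitors in the rule, Fstl3, an activin binder, was at 1.49 to 1.91 CPM on average with no call, and Nog had no count in any library. Grem1 was at most 1.16 CPM and was not tested.

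Of 19 further secreted or membrane-bound antagonists, 9 were tested. In beta against delta 5 were lower and none higher (15.3% and 15.4% of all genes tested). In alpha against delta 3 were lower and none higher (13.3% and 11.0%). In beta against alpha 2 were lower and 1 higher (11.9% and 14.8%). Their median log2 fold changes were -3.36, -0.22 and -0.31 in that order, beside -0.02, -0.01 and -0.02 over all genes tested. Cer1, which binds Nodal and BMPs, was at 16.8, 19.8 and 14.0 CPM in delta and at most 0.514 elsewhere, with 363 counts in delta against 3 in beta and 1 in alpha (adjusted p = 6.12e-07 and 3.08e-07). Fstl5, a follistatin-like protein, was at 43.2, 49.7 and 41.6 CPM in delta and at most 1.89 elsewhere (log2 -5.28 in alpha and -6.06 in beta, adjusted p = 1.19e-09 and 4.52e-10). Nbl1, a BMP antagonist of the DAN family, as is Cer1, was at 15.7 ± 8.12 CPM in delta against 1.65 ± 0.873 in alpha and 0.899 ± 0.339 in beta (adjusted p = 3.82e-05 and 5.93e-06). Crim1, a membrane protein that binds BMPs, was lower in beta, at 0.530 ± 0.401 CPM, than in alpha (7.92 ± 0.654, adjusted p = 1.09e-05) and delta (5.46 ± 1.42, adjusted p = 5.34e-05), the latter lost on the log2(TPM + 1) scale (adjusted p = 0.0747). Fstl4 had 0 counts in beta, beside 3.94 ± 1.42 CPM in alpha and 3.74 ± 1.65 in delta (adjusted p = 5.06e-05 and 5.10e-05). Twsg1 was high in every subset, at 286 ± 28.5 CPM in alpha, 351 ± 26.7 in beta and 333 ± 38.6 in delta. It was called higher in beta than in alpha (adjusted p = 0.0446), which was lost on the log2(TPM + 1) scale (adjusted p = 0.616).

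Bambi and Tgfbr3 act at the receptor level. Bambi encodes a pseudoreceptor without a kinase that dampens signalling, and was at 61.5, 83.3 and 66.9 CPM in delta, 22.3, 22 and 20.3 in alpha, and 14.4, 10.8 and 10.9 in beta. The 3 subsets did not overlap in any pair. Log2 fold changes were -1.71 in alpha against delta (SE 0.16, adjusted p = 4.05e-07), -2.54 in beta against delta (SE 0.17, adjusted p = 4.24e-09) and -0.83 in beta against alpha (SE 0.17, adjusted p = 0.00141). The last of these did not pass on the log2(TPM + 1) scale (adjusted p = 0.239).

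Tgfbr3, or betaglycan, presents TGF-beta2 to its receptors and is a co-receptor for inhibin. It was at 46.0, 51.7 and 39.3 CPM in delta, 15.0, 9.44 and 13.8 in alpha, and 23.8, 23.3 and 15.0 in beta. Delta lay above every other library, with log2 fold changes of -1.84 in alpha (SE 0.21, adjusted p = 4.38e-06) and -1.14 in beta (SE 0.21, adjusted p = 0.000386). The second was -0.71 on the log2(TPM + 1) scale (adjusted p = 0.0935), and the first lost its call on the log2(TPM + 0.1) scale (adjusted p = 0.0612). Beta and alpha met at 15.0 CPM, and their difference (0.70, SE 0.22, adjusted p = 0.0234) was lost without alpha library 2, beta library 1 or beta library 2 (adjusted p = 0.113 to 0.127). Exons of Tgfbr3 share 297 bases with Gm43422 on the same strand, and 5 of its expected counts were not whole numbers.

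Of 7 type I receptors 6 were tested, and 2 of them, Acvr1c and Bmpr1b, differed by more than log2 1. Acvr1c, or ALK7, a receptor for activin B and Nodal, was at 28.8, 24.9 and 28.2 CPM in alpha, 29.3, 21.6 and 26.4 in beta, and 5.46, 4.23 and 3.34 in delta. Alpha and beta overlapped fully (adjusted p = 0.817) and both lay above delta, by log2 2.65 (SE 0.22, adjusted p = 8.78e-08) and 2.57 (SE 0.22, adjusted p = 9.52e-08). Acvr1 is the next member on chromosome 2, 30749 bases from Acvr1c, and was at 30.9 ± 5.74 CPM in alpha, 20.8 ± 2.03 in beta and 29.4 ± 3.5 in delta. The neighbours thus had different orders of mean level across subsets.

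Bmpr1b, a type I receptor for BMPs and GDFs, was at 8.22, 7.2 and 12.7 CPM in beta, 1.03, 1.39 and 1.27 in alpha, and 2.05, 5.59 and 3.34 in delta. The 3 subsets did not overlap. Beta exceeded alpha by log2 2.92 (SE 0.45, adjusted p = 9.14e-05). Beta exceeded delta by 1.36 (SE 0.41, adjusted p = 0.0181), which was lost without beta library 3 (adjusted p = 0.133), and alpha against delta was -1.56 (SE 0.46, adjusted p = 0.0194), which was lost without alpha library 1, alpha library 3 or delta library 2 (adjusted p = 0.0526 to 0.0966). Both also missed the threshold on the log2(TPM + 1) scale (adjusted p = 0.13 and 0.425).

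Tgfbr1, or ALK5, the type I receptor for TGF-beta, was at 131, 109 and 119 CPM in beta, 75.9, 66.5 and 67.9 in alpha, and 61.7, 64.6 and 68.6 in delta. Beta stood above all other libraries, by log2 0.77 over alpha (SE 0.11, adjusted p = 3.37e-05) and 0.88 over delta (SE 0.11, adjusted p = 7.17e-06). On the log2(TPM + 1) scale the difference from alpha did not pass (0.63, adjusted p = 0.132). Tgfbr2, the type II partner that binds TGF-beta first, had 0 to 22 counts per library, highest at 3.0, 1.06 and 2.31 CPM in delta, and was not tested. Acvrl1, a type I receptor of endothelium, was also not tested, and endothelial markers summed to at most 9.12 CPM in any library.

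**Figure D3:**
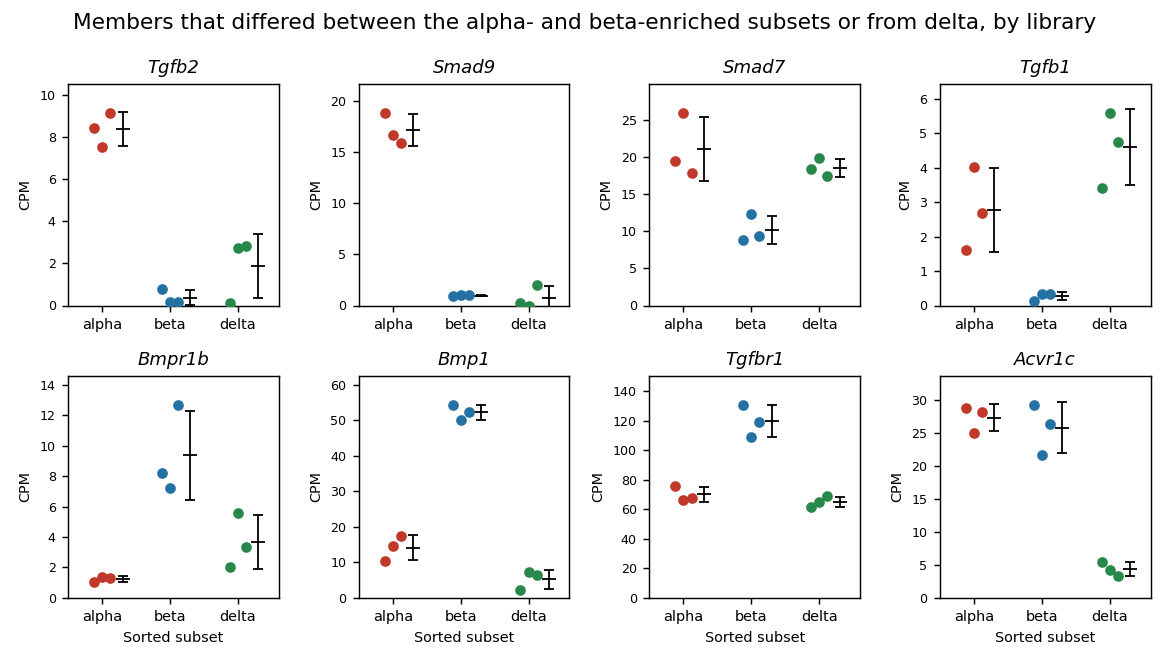
CPM (linear axis from 0) of members that were higher or lower in alpha or beta, with dots for libraries and a black bar for mean ± SD (n = 3), cut at 0 where it would go below. Smad9 and Tgfb2 stand out in alpha, Bmp1, Bmpr1b and Tgfbr1 in beta, and Acvr1c is shared by alpha and beta.

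The remaining receptors differed by less than log2 1. Bmpr1a, a type I receptor for BMPs, was lower in beta, at 158 ± 13.7 CPM, than in alpha (194 ± 8.57, log2 -0.29, adjusted p = 0.0343) and delta (204 ± 17.8, log2 -0.37, adjusted p = 0.00782). The first was lost without any 1 alpha library, beta library 2 or beta library 3 (adjusted p = 0.0617 to 0.142), and the second without beta library 2 and delta library 3 together (adjusted p = 0.0531). Acvr1, or ALK2, was lower in beta than in alpha (log2 -0.57, adjusted p = 0.023) and delta (log2 -0.49, adjusted p = 0.0428). These were lost without alpha library 1 or any beta library (adjusted p = 0.0526 to 0.15), and without alpha library 2 or 3, any beta library or delta library 3 (adjusted p = 0.0525 to 0.16). Acvr1b, or ALK4, the main activin receptor of type I, was at 33.3 ± 5.64 CPM in delta against 23.5 ± 3.02 in alpha and 23.6 ± 2.92 in beta (adjusted p = 0.0459 and 0.0427). The difference from alpha was lost when any 1 library except alpha library 3 or delta library 1 was left out (adjusted p = 0.0579 to 0.164), and that from beta when any 1 except beta library 2 or delta library 1 was (adjusted p = 0.0508 to 0.175).

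Of the type II receptors, Bmpr2 was at 199 ± 1.11 CPM in alpha, above beta at 144 ± 11.9 (log2 -0.46 in beta, adjusted p = 0.00103) and delta at 159 ± 8.09 (log2 0.33 in alpha, adjusted p = 0.0151). Acvr2a and Acvr2b, the type II receptors for activins, made no call, at 80.6 to 90.8 and 7.75 to 12.5 CPM on average. Exons of Acvr2a share 446 bases with Orc4 on the opposite strand, which was at 104.6 CPM in alpha, 96.6 in beta and 91.7 in delta. The expected count of Acvr2a was not whole in any of the 9 libraries, so its level is uncertain. Acvr2b was lower in beta without beta library 1 (adjusted p = 0.0328 against alpha and 0.0276 against delta). None of the calls of Bmpr1a, Acvr1, Acvr1b and Bmpr2 passed on either log2(TPM) scale.

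Receptors and Smads were the most abundant members per length. Bmpr1a led in every subset, at 19.5 ± 3.68 TPM in alpha, 14.9 ± 3.19 in beta and 16.9 ± 1.67 in delta. Smad4 came next in alpha and beta, at 15.7 ± 0.814 and 14.8 ± 3.07 TPM. In beta this was within the spread of Bmpr1a. In alpha Smad4 was at 14.8, 16.0 and 16.3 TPM, each below the lowest Bmpr1a value of 16.7. In delta the ligand Bmp3 came second, at 15.4 ± 2.09 TPM, followed by Smad4 at 13.1 ± 1.16, and neither pair of neighbours in that order was separated by more than its SDs. Bambi reached 6.61 ± 1.86 TPM in delta. Tgfbr1 followed Bmpr1a and Smad4 in beta at 12.5 ± 2.53 TPM, seventh in alpha at 7.67 ± 0.986 and near the end of the 12 highest in delta at 5.60 ± 1.05.

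**Figure D4:**
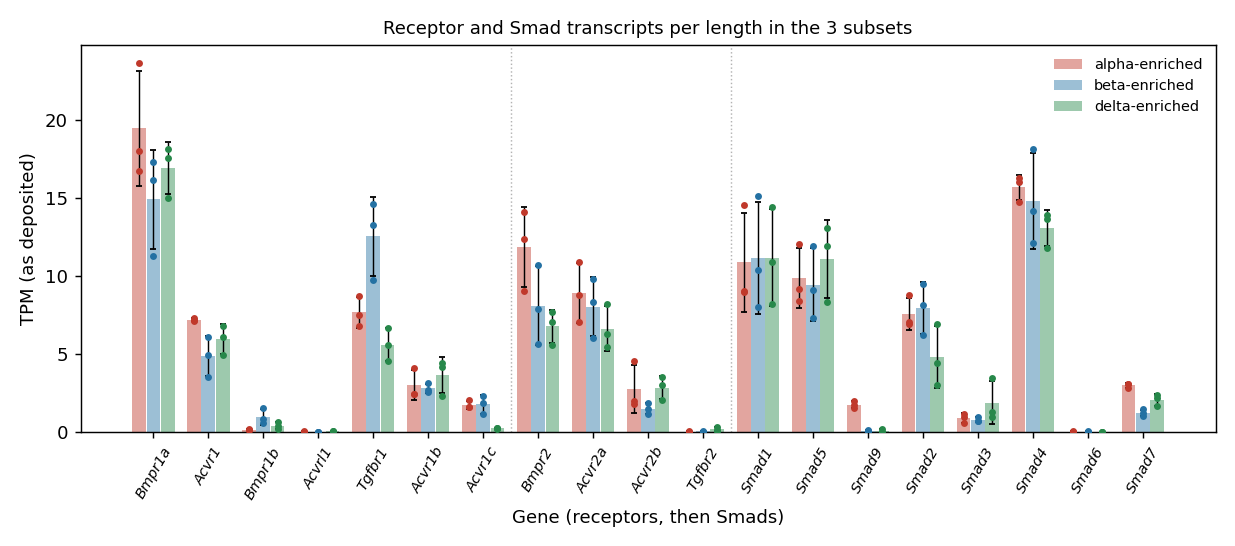
TPM (linear axis from 0) of receptors and Smads, with bars for the mean of each subset, dots for libraries and black lines for SD (n = 3). Bmpr1a and Smad4 lead in all 3 subsets, and Smad9 and Acvr1c lie low on this scale even where they differ most.

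Among Smads, Smad9 stood apart. This Smad of the BMP branch, on chromosome 3 at 54755582 to 54801257 (plus strand), was at 18.9, 16.7 and 15.9 CPM in alpha, 0.899, 1.03 and 0.990 in beta, and 0.273, 0 and 2.06 in delta. Every alpha library was above every other library. The log2 fold change was -4.13 in beta against alpha (SE 0.62, adjusted p = 0.000115) and 4.38 in alpha against delta (SE 0.62, adjusted p = 8.28e-05), the latter 6.75 without delta library 3. Beta against delta was 0.25 with adjusted p = 0.843, and 2.62 with adjusted p = 0.017 without delta library 3.

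The other Smads of the BMP branch differed by less than log2 1. Smad5 was at 129 ± 9.92 CPM in delta against 99.2 ± 1.5 in beta (log2 -0.37, adjusted p = 0.00733) and 105 ± 5.61 in alpha (log2 -0.29, adjusted p = 0.0383). The second call was lost when any library other than delta library 1 was left out (adjusted p = 0.0556 to 0.166), and neither passed on the TPM scales. Smad1 was at 51.0 to 64.9 CPM on average with no call (adjusted p = 0.0692 in beta against delta). That difference passed with the replicate block (-0.35, adjusted p = 0.0236) and with upper-quartile scaling factors (-0.41, adjusted p = 0.0365). It also passed among genes at 10 CPM or more in 3 libraries (-0.39, adjusted p = 0.0365). Per length, Smad9 in alpha reached 1.76 ± 0.223 TPM beside 10.9 ± 3.20 for Smad1 and 9.88 ± 1.93 for Smad5.

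In the activin and TGF-beta branch, Smad2 was at 73.1 ± 7.11 CPM in alpha, 50.6 ± 2.08 in beta and 51.1 ± 13.0 in delta. It was called lower in beta than in alpha (log2 -0.53, adjusted p = 0.0171), but this was 0.05 on the log2(TPM + 1) scale (adjusted p = 0.954), and it was lost without alpha library 1, beta library 2 or beta library 3 (adjusted p = 0.0636 to 0.0855). Smad2 was higher in alpha than in delta (0.52, adjusted p = 0.0215), which was lost without alpha library 1, alpha library 3 or delta library 2 (adjusted p = 0.0548 to 0.0943) and on the TPM scales. Smad3 was lower in beta, at 7.58 ± 0.646 CPM, than in delta at 13.5 ± 1.08 (log2 -0.84, adjusted p = 0.0294). This was lost without any 1 beta library or delta library 3 (adjusted p = 0.0602 to 0.115) and on the TPM scales, and alpha held 8.45 ± 3.14. Smad4, the shared partner, made no call, at 85.8 ± 9.34, 83.7 ± 1.92 and 81.9 ± 5.49 CPM in alpha, beta and delta (adjusted p = 0.708 to 0.862).

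Smad7, the inhibitory Smad that is itself induced by the pathway, was at 8.86, 12.3 and 9.41 CPM in beta, 19.5, 25.9 and 17.8 in alpha, and 18.3, 19.8 and 17.5 in delta. Beta lay below all other libraries, by log2 -1.05 against alpha (SE 0.21, adjusted p = 0.00119) and -0.86 against delta (SE 0.22, adjusted p = 0.00505). On the log2(TPM + 1) scale the difference from delta was -0.45 (adjusted p = 0.231). Alpha and delta overlapped (adjusted p = 0.571). Smad6, which inhibits the BMP branch, had 0 to 2 counts per library and was not tested.

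Target genes of the pathway, each of which also has other regulators, were read from a list. Of 19 listed, 13 were tested. In beta against alpha 9 were lower and 1 higher (11.9% and 14.8% of all genes tested). In beta against delta 5 were lower and 2 higher (15.3% and 15.4%). In alpha against delta 5 were higher and 4 lower (11.0% and 13.3%). The median log2 fold changes were -0.77, -0.73 and 0.57, beside -0.02, -0.02 and -0.01 over all genes tested. The list was chosen with earlier results of these data known. The Id genes, whose products block basic helix-loop-helix factors and which BMP Smads induce, took different orders across subsets.

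Id3 was at 25.1, 28.6 and 26.4 CPM in alpha, 1.03, 1.03 and 1.82 in beta, and 5.60, 2.27 and 2.44 in delta, so that no subset overlapped another. Log2 fold changes were -4.37 in beta against alpha (SE 0.37, adjusted p = 7.76e-08) and 2.95 in alpha against delta (SE 0.32, adjusted p = 2.05e-06). Beta against delta was -1.42 (SE 0.41, adjusted p = 0.0126), which was -0.87 without delta library 1 (adjusted p = 0.0849) and was lost without beta library 1 or 2 (adjusted p = 0.0669 and 0.0539).

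Id1 followed alpha as well, at 9.34, 7.68 and 10.3 CPM there, 0, 0 and 0.330 in beta, and 0, 2.27 and 1.28 in delta. Its 216 counts in alpha stood against 2 in beta, a ratio of 89.3 with a counting interval of 24.4 to 742 (adjusted p = 0.000217). Alpha exceeded delta by log2 2.94 (adjusted p = 0.00744, and DESeq2 adjusted p = 0.0627), or 3.77 without delta library 2. Beta and delta overlapped, and their call (adjusted p = 0.0432) was lost with DESeq2 (0.0811), with the replicate block (0.0579), on the log2(TPM + 1) scale (0.288) and without any 1 library other than beta library 3 or delta library 1 (0.0591 to 0.159).

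Atoh8, a helix-loop-helix factor that BMPs induce, was at 7.86, 7.81 and 6.21 CPM in alpha, 0, 0.171 and 0.165 in beta, and 0.273, 0 and 0.257 in delta. Alpha again stood alone, at a ratio of 72.3 over beta (175 counts against 2, interval 19.7 to 602, adjusted p = 1.66e-05) and log2 5.19 over delta (adjusted p = 2.96e-05). Id1, Id3 and Atoh8 were even across the 3 alpha libraries.

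Id2 and Id4 were instead lowest in beta and highest on average in delta. Id2 was at 57.8, 56.2 and 52.0 CPM in delta, 24.5, 34.5 and 33.6 in alpha, and 19.5, 15.1 and 19.5 in beta, with no overlap (log2 -0.84 in alpha against delta, -1.61 in beta against delta and -0.77 in beta against alpha, adjusted p = 0.000804, 8.81e-07 and 0.0022). On the log2(TPM + 1) scale the differences of alpha from delta and beta were not called (adjusted p = 0.223 and 0.138). Id4 was at 7.92, 14.4 and 17.2 CPM in delta, 7.63, 6.42 and 8.04 in alpha, and 1.41, 2.57 and 1.65 in beta. Beta was below both (log2 -1.98 and -2.82, adjusted p = 0.000655 and 1.52e-05), although against alpha it missed the threshold on the log2(TPM + 1) scale (adjusted p = 0.0783). Alpha and delta overlapped for Id4 (adjusted p = 0.0714), and differed without delta library 1 (-1.10, adjusted p = 0.00831).

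**Figure D5:**
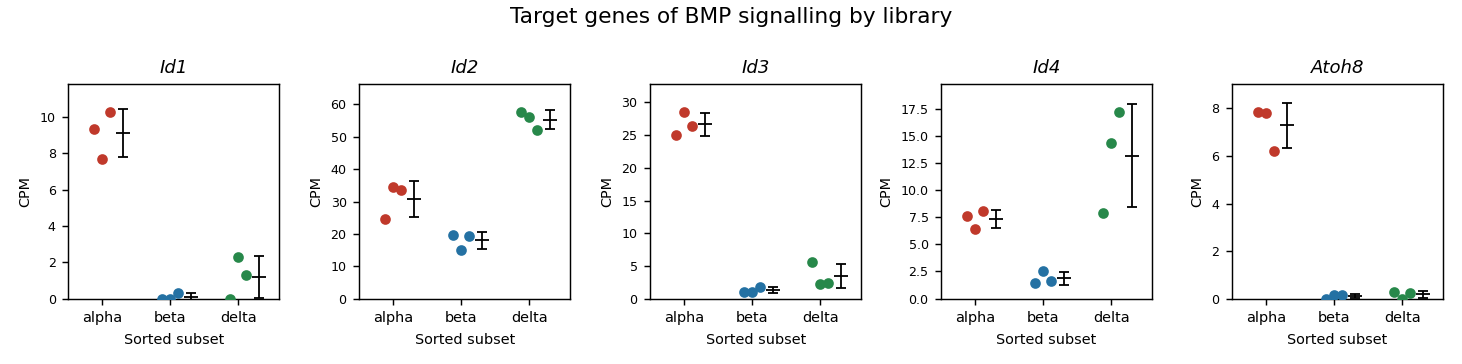
CPM (linear axis from 0) of Id1 to Id4 and Atoh8 by library (dots) with mean ± SD (n = 3), cut at 0 where it would go below. Id1, Id3 and Atoh8 are highest in the 3 alpha libraries, Id2 in the 3 delta libraries, and Id4 is lowest in the 3 beta libraries.

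Genes that handle latent TGF-beta or act inside the cell were mixed in direction. Of all genes tested, 14.8% were higher and 11.9% lower in beta against alpha. The shares were 15.4% and 15.3% in beta against delta, and 11.0% and 13.3% in alpha against delta. Of 12 latency and activation genes 6 were tested, with 2 higher and 2 lower in beta against alpha and 1 in each direction in both other comparisons. Ltbp2, a matrix protein of the latent TGF-beta binding family, was at 5.01, 5.66 and 8.58 CPM in beta and at most 0.956 elsewhere (adjusted p = 0.00171 against alpha and 0.00156 against delta). Ltbp3, which carries latent TGF-beta, was lower in beta, at 24.5 ± 1.79 CPM, than in alpha (63.0 ± 4.62, adjusted p = 4.00e-05) and delta (52.5 ± 16.3, adjusted p = 0.00029), with neither call passing on the log2(TPM + 1) scale (adjusted p = 0.376 and 0.551). Of 19 intracellular regulators, all tested, beta against alpha gave 3 higher and 3 lower, and the other comparisons gave 5 higher and 3 lower each. Tgif1, a Smad corepressor, was at 10.5, 7.71 and 12.3 CPM in delta and at most 0.684 elsewhere (log2 -4.31 in alpha and -4.60 in beta, adjusted p = 4.96e-06 and 3.10e-06).

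Of 10 co-receptors and other receptors 4 were tested. In beta against alpha 2 were higher and 2 lower (14.8% and 11.9% of all genes tested). In beta against delta 1 was higher (15.4%), and in alpha against delta 2 were higher (11.0%). Neo1, a receptor for repulsive guidance molecules that assist BMP signalling, was at 228 ± 21.9 CPM in alpha, 155 ± 4.32 in beta and 135 ± 11.4 in delta (adjusted p = 0.00037 against beta and 1.78e-05 against delta), the first of which was lost on the log2(TPM + 1) scale (adjusted p = 0.162). Of 5 other ligands 2 were tested. Mstn, or myostatin, had 0 counts in beta and 56 in alpha, at least 15.4-fold lower in beta against 3 counts over its libraries (adjusted p = 0.00105), and was at least 5.13-fold lower there than in delta (adjusted p = 0.0113), the latter lost on the log2(TPM + 1) scale (adjusted p = 0.353).

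Bmp1, the procollagen protease, was at 54.4, 50.0 and 52.3 CPM in beta, 10.3, 14.6 and 17.4 in alpha, and 2.05, 7.11 and 6.30 in delta. No subset overlapped another. Beta exceeded alpha by log2 1.90 (SE 0.29, adjusted p = 0.000138) and delta by 3.34 (SE 0.32, adjusted p = 1.17e-06), and alpha exceeded delta by 1.45 (SE 0.32, adjusted p = 0.00393). The last missed the threshold on the log2(TPM + 1) scale (adjusted p = 0.0727), and beta against alpha did so at a pseudocount of 0.1 (adjusted p = 0.0549). Bmp2k, the kinase, was at 26.8, 24.3 and 31.9 CPM in beta, 11.3, 11.6 and 15.5 in alpha, and 17.9, 24.8 and 23.8 in delta. Alpha was below both, by log2 1.12 for beta over alpha (SE 0.20, adjusted p = 0.000383) and -0.79 for alpha against delta (SE 0.20, adjusted p = 0.00736), and neither passed on the log2(TPM + 1) scale (adjusted p = 0.0892 and 0.397). Exons of Bmp2k share 1185 bases with Paqr3 on the opposite strand, and its expected count was not whole in any of the 9 libraries, so its level is uncertain.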

How the data were processed

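The authors deposited RSEM gene tables, 1 per library, with the expected count and TPM of 55536 genes per the file headers. Per the labels' protocols, the NuGEN Ovation Solo kit with random priming gave strand-specific libraries, depleted of ribosomal RNA and read from both ends. Per the submitters' processing notes, the build was GRCm38.p6 and the tools were DESeq2 1.22.1, R 3.5.1, RSEM and STAR 2.5.2b. The RSEM version and the strand setting are not given in the sources used here. A deposited normalised table was not used.

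Expected counts were rounded. Genes passing filterByExpr were fitted in edgeR 4.0.16 (R 4.3.3) with TMM factors, all 9 libraries and 1 coefficient per subset. The robust quasi-likelihood tests were 2-sided with Benjamini-Hochberg adjustment over 15896 genes. The common biological coefficient of variation was 0.212. Every adjusted p is from this fit unless another tool is named; on the TPM scales it is from limma 3.58.1 on log2(TPM + pseudocount), pseudocount 1 or 0.1, which understates changes of low genes. DESeq2 1.42.0, other scaling factors and filters, a replicate block and leaving out libraries were further alternatives. The scripts were tested on simulated data. Counting intervals (95%, exact) and floors (3 counts) cover counting error only.

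Members past the test with a log2 fold change of at least 1 and 5 CPM in the higher subset were given by library. Others were given by level, and of each other list up to 4 genes with the smallest p per comparison plus Id1 to Id4; a few values outside this rule were added after they were seen. Members and lists were chosen with earlier results of these data known. Symbols and coordinates are from GENCODE M21, and all 55536 identifiers matched. Some genes that the rules took are not reported here.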

Additional observations from a re-analysis of the deposited data

How the results depend on the processing

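Of 52 member calls over the 3 comparisons, 23 kept direction and threshold in all 20 other settings in which they could be fitted. Of the rest, 28 were lost or reversed on at least 1 TPM scale, 15 without at least 1 library and 6 in another count-based setting; the cause was not tested. On log2(TPM + 1), beta against alpha gave 2 members higher and 3 lower, beta against delta 8 lower and alpha against delta 3 higher and 7 lower, with 1 highest in beta. On log2(TPM + 0.1) these were 1 and 4, 8, 3 and 6, and 0 highest in beta. On log2(TPM + 1) rescaled without ribosomal RNA, chosen after seeing the data, they were 3 lower, 8 lower, 3 higher and 7 lower, and 1. Calls over all genes tested also fell on these scales. In beta against alpha they were 812 higher and 801 lower on log2(TPM + 1), beside 2345 and 1886 in the main fit. The other 2 scales gave 780 and 873, and 1243 and 834. In beta against delta the scales gave 1216 and 1043, 1198 and 1099, and 1782 and 1179, beside 2442 and 2427. In alpha against delta they gave 842 and 767, 851 and 742, and 923 and 976, beside 1748 and 2120. Members highest in delta numbered 5, 6 and 5 on these 3 scales, beside 7 in the main fit. Smad2 in beta against alpha turned to 0.0511, 0.0556 and 0.16 on the same 3 scales. The median of all genes in alpha against delta moved from -0.01 to 0.15 and 0.22 on the first 2 scales.

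At 10 CPM or more in 3 libraries, 22 members were tested, and 1 was highest in alpha and 1 in beta. Of all 10095 genes tested at that filter, 190 were highest in alpha and 300 in beta. Leaving out each library gave 1 to 2 highest in alpha, 1 to 2 in beta and 6 to 7 in delta. It gave 4 to 6 higher and 7 to 10 lower in beta against alpha, 3 to 5 and 12 to 16 in beta against delta, and 4 to 6 and 8 to 11 in alpha against delta. Of all genes tested, 235 to 311 were highest in alpha, 360 to 479 in beta and 554 to 698 in delta. In beta against alpha 1754 to 2712 of all genes were higher and 1443 to 2285 lower. In beta against delta these were 1919 to 2647 and 1927 to 2613, and in alpha against delta 1342 to 2021 and 1691 to 2313. Without beta library 2 and delta library 3 together, 1 was highest in alpha and 1 in beta, where 261 and 366 of all 16361 genes tested were.

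With the replicate number as a block, counts stayed at 5 and 10, 4 and 16, and 6 and 11, and at 2, 2 and 7 highest in alpha, beta and delta. The correlation of deviations between same-numbered libraries was 0.00566 to 0.144, over 0.1 in 3 of 9 pairs. Between libraries of other numbers it was -0.145 to 0.0445. The numbers were not taken as pairs because nothing in the labels says that they pair samples. On average all 9 libraries correlated best with their own number, a hint from the data only. The 24 members that were not tested, each at 3.27 CPM or less in every library, could not be compared at this depth.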
